A study of Mus musculus with 6 samples.

Results

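A set of 10 genes of the Nodal and activin pathway were followed in the RNA of mouse embryonic stem cells with and without Pml. These were taken by name from the deposited gene table: the ligand gene Nodal, the antagonist genes Lefty1 and Lefty2, the receptor genes Acvr1b, Acvr2a and Acvr2b, the signal transducer genes Smad2, Smad3 and Smad4, and the repressor gene Skil. All 10 were among the 24421 genes of the table, and all 10 passed the filter of a mean of at least 1 CPM (reads per 1000000 reads counted in genes). RNA was sequenced from E14 cells, a mouse embryonic stem cell line, that were wild type (n = 2 libraries) or Pml-/- (n = 2 libraries). Every library came from cells given 10 µM paraquat, a redox cycler that makes superoxide, for 15 h, so no untreated cells enter the comparison and a response to paraquat was not measured. The medium of all 4 contained fetal bovine serum, leukemia inhibitory factor, CHIR99021 (which inhibits GSK3) and PD0325901 (which inhibits MEK). The sources used here state neither whether the knockout is 1 clone nor whether replicate libraries are from separate cultures, so p-values measure the spread between these libraries, which may be technical. A further 2 samples of the series, chromatin from cells with a knocked-in peroxidase-PML fusion, were not analysed here.

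Nodal and activins are secreted ligands of the TGF-beta superfamily. They bind a type II receptor (Acvr2a or Acvr2b) that activates a type I receptor (Acvr1b, also called ALK4), and Nodal additionally needs the co-receptor Cripto, encoded by Tdgf1. The type I receptor phosphorylates SMAD2 and SMAD3, which enter the nucleus with SMAD4 and act with DNA-binding partners such as FOXH1. Nodal, Lefty1 and Lefty2 are themselves classical targets, and the Lefty proteins block Nodal outside the cell, which makes a negative feedback loop. SnoN, the product of Skil, represses SMAD-dependent transcription. In mouse embryonic stem cells the pathway is active through ligands the cells make themselves. PML, the scaffold of PML nuclear bodies, has a cytoplasmic form described as a partner of SMAD2, SMAD3 and the receptor adaptor SARA (Zfyve9) in TGF-beta signalling.

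The start regions of Nodal, the ligand gene, and of Tdgf1, the co-receptor gene described below as higher in the knockout, are shown because FOXH1 and SMAD proteins act on DNA. Each runs from 250 bases before to 50 after the annotated RefSeq start (GRCm38.p6, of which mm10 is the UCSC name), at chr10:61417722-61418021 on the plus strand for Nodal and chr9:110946109-110946408 on the minus strand for Tdgf1. Capitals mark matches on either strand to TGTNNATT, used as a loose pattern for the FOXH1 motif, and to CAGAC, a SMAD-binding motif. In the loose pattern N stands for any base. No match of one overlaps a match of the other.
Nodal: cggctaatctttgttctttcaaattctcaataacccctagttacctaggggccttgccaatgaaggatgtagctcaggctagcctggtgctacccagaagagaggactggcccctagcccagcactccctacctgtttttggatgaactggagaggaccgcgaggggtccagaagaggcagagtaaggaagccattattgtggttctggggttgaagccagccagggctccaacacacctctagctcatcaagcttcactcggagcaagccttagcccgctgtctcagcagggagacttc
Tdgf1: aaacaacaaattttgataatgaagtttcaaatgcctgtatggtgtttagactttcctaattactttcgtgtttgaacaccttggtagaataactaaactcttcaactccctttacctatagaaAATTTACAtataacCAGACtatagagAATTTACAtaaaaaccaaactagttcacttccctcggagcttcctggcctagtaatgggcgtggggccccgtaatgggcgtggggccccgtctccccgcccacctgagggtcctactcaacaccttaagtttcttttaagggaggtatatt
The Tdgf1 window held 2 FOXH1-type matches, which begin 127 and 101 bases before the start, and between them 1 SMAD-type match, which begins 113 bases before the start. At least 1 FOXH1-type match was present in 12.2% of 32841 promoter windows of this length, at least 2 in 1.43%, and the shorter SMAD motif in 49.6%. The Nodal window held 0 matches of either kind, which says only that these letters are not in these 300 bases. Windows of 5 of the 10 genes studied were searched, and besides Nodal these were Acvr1b, Acvr2a, Acvr2b and Smad3. None of these 5 windows held the FOXH1-type letters, and Acvr2a and Acvr2b each held 1 SMAD-type match. The start regions of Lefty1, Lefty2, Skil, Smad2 and Smad4 were not searched, so nothing is said here of their letters. Because N allows any base, a FOXH1-type match need not be a FOXH1 site, and whether those of Tdgf1 are was not tested. A match is a description of the sequence, and no binding was measured here.

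Library depth ranged from 31384794 to 44130093 reads, and the members had from 459 reads (Lefty1, wild-type library 1) to 5979 reads (Nodal, knockout library 2) in a library. Pml itself stood at 238 and 228 CPM in wild-type cells and at 78.7 and 89.7 CPM in knockout cells (log2 fold change -1.46, limma adjusted p = 4.43e-10), lower in both libraries labelled Pml-/-. Each log2 fold change here is knockout minus wild type on the log2(CPM + 1) scale, which understates changes of low genes. All 8 embryonic stem cell markers listed, among them Pou5f1, Sox2 and Nanog, passed the filter, and their summed level was 6186 to 6294 CPM in wild type, against 6339 to 6446 CPM in the knockout. Of these markers Tfcp2l1 was called higher and Zfp42 lower, 2 of 8 beside 5.41% of all tested genes, and 5 of 8 had an unadjusted limma p under 0.05, beside 19.3%. Summed markers of other cell types were low. For 6 primitive endoderm genes the sums were 7.05 to 7.71 CPM in wild type, against 6.66 to 9.01 CPM in the knockout, and for 5 mesendoderm genes 9.83 to 9.97 and 8.72 to 9.04 CPM. For 6 fibroblast genes they were 6.84 to 7.58 and 5.82 to 6.47 CPM, and for 5 trophoblast genes 5.83 to 6.62 and 7.37 CPM in both knockout libraries. None of these markers had 0 reads in all libraries. The part of these small differences in the results below was not tested, and in RNA from whole cultures fewer expressing cells and less RNA per cell cannot be told apart.

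The core of the pathway was expressed in every library, and no member passed the test between genotypes. With limma over 12710 genes, 0 of the 10 had an adjusted p under 0.05, beside 5.41% of all tested genes (3.45% called lower and 1.95% called higher). At an unadjusted p under 0.05 there was 1 (Lefty2), beside 19.3% of all tested genes. A count test with edgeR on reads recovered from the CPM values also called 0 of 10, beside 4.19% of all genes it tested. DESeq2 on these reads called 0 of 10, beside 484 of the 24421 genes given to it, which include genes without reads. In the authors' deposited table, from their own edgeR test, 1 of the 10 had a false discovery rate under 0.05 (Lefty2, 0.039), beside 3.8% of its 24421 genes in either direction and 2.38% lower in the knockout. Log2 fold changes ran from -0.32 (Lefty2) to 0.14 (Smad3), with 4 above 0 and 6 below. Their median size, whatever the sign, was 0.078, and that of all tested genes was 0.086. The libraries of the genotypes did not overlap for 5 of the 10, 2 higher and 3 lower in the knockout, and the same held for 49.3% of all tested genes (23.8% higher and 25.5% lower).

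**Figure D1:**
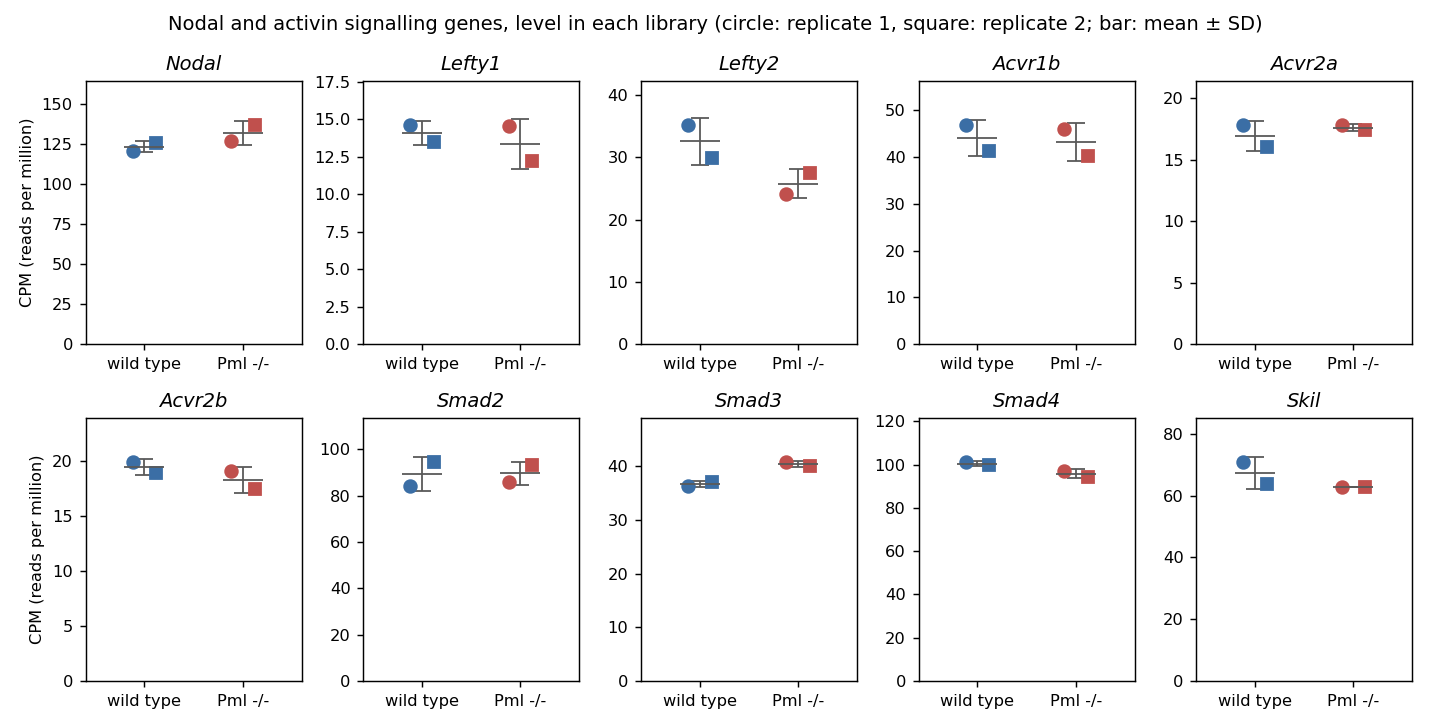
Level of each member in each library, in CPM on a linear axis from 0 (blue: wild type, red: Pml-/-; circles: replicate 1, squares: replicate 2; horizontal lines and bars: mean ± SD, n = 2). Lefty2 shows the widest gap relative to its level, with 29.9 and 35.2 CPM in wild type against 24.1 and 27.4 CPM in the knockout.

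The ligand gene Nodal was at 120.8 and 125.5 CPM in the wild-type libraries and at 126.4 and 136.8 CPM in the knockout libraries. Both knockout libraries lay above both wild-type ones, the lower of them by less than the gap between the wild-type libraries. The means were 123 ± 3.34 and 132 ± 7.32 CPM (SD, n = 2 each), and the log2 fold change of 0.094 (SE 0.053) did not pass (limma adjusted p = 0.364). Its 95% interval corresponds to 0.987-fold to 1.15-fold of the wild-type level. Nodal lies on chromosome 10 from 61417972 to 61425338 (GRCm38.p6).

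Lefty2, which encodes a Nodal antagonist, had the lowest log2 fold change of the 10. Its levels were 35.2 and 29.9 CPM in wild type, against 24.1 and 27.4 CPM in the knockout. The groups did not overlap, but wild-type library 2 was closer to knockout library 2 than to wild-type library 1. The mean was 32.5 ± 3.74 CPM in wild type, against 25.8 ± 2.33 CPM in the knockout, a ratio of 0.792, with a log2 fold change of -0.32 (SE 0.092) and a limma adjusted p of 0.0524. The interval ran from 0.698-fold to 0.915-fold. Among all tested genes, 6.75% had a larger change in either direction. The difference between libraries of the same number was -0.53 for number 1 and -0.12 for number 2 on the log2 scale.

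The side of the threshold on which Lefty2 fell depended on single libraries and on the model. Without wild-type library 2 the log2 fold change was -0.44 (adjusted p = 0.00187), and without knockout library 2 it was -0.41 (adjusted p = 0.045). Without wild-type library 1 it was -0.21 (adjusted p = 0.382), and without knockout library 1 it was -0.23 (adjusted p = 0.222). Wild-type library 2 is the one whose kit entry in the labels names a DNA library kit alone, whereas the other 3 name an RNA kit (1 of them beside the DNA kit); the sources used here do not say whether its preparation differed. With all 4 libraries and the replicate number as a block, Lefty2 passed (adjusted p = 0.00999); the labels do not say that equal numbers mark a shared batch. The direction was the same under all 12 alternatives tried.

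**Figure D2:**
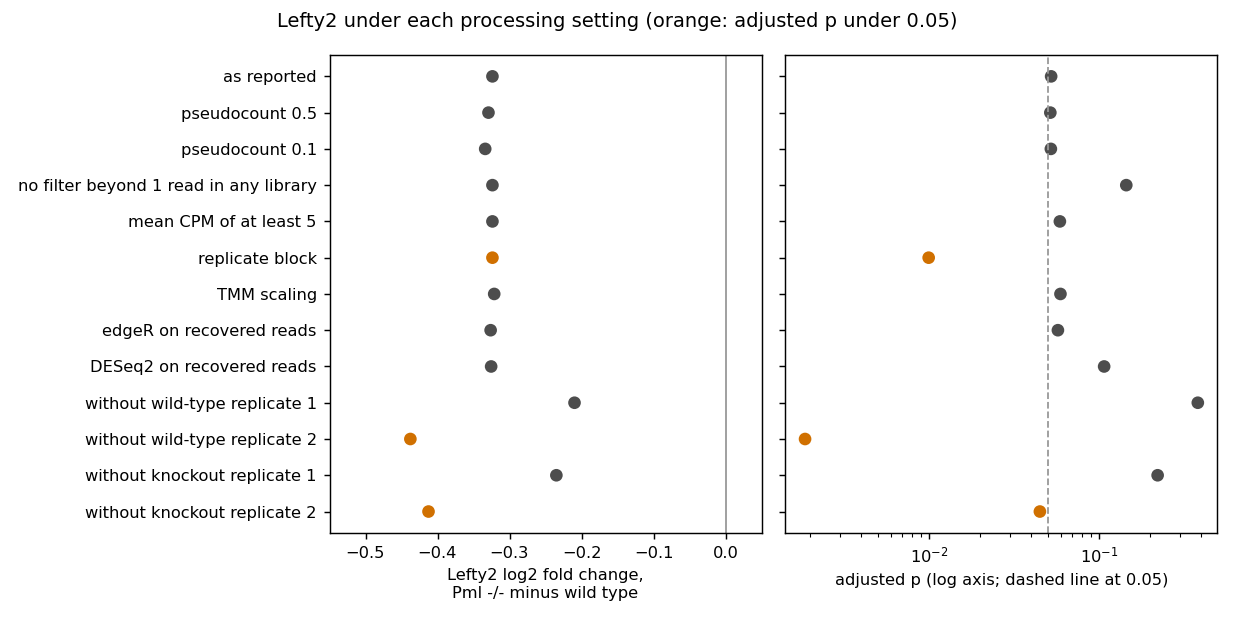
Lefty2 log2 fold change (left, knockout minus wild type) and adjusted p (right, log axis, dashed line at 0.05) as reported and under 12 alternatives, named at the left; orange marks an adjusted p under 0.05. All changes lie below 0, from -0.44 to -0.21, and 3 of the 12 alternatives pass, the replicate block and 2 that leave out a library.

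Lefty1, the neighbouring paralog, did not separate the genotypes. Its levels were 14.6 and 13.5 CPM in wild type, against 14.5 and 12.2 CPM in the knockout, so the groups overlapped (log2 fold change -0.072, SE 0.11, limma adjusted p = 0.779). Its interval ran from 0.81-fold to 1.12-fold. Both genes lie on chromosome 1, Lefty2 from 180893108 to 180899107 and Lefty1 from 180935022 to 180938401 (GRCm38.p6), 35.9 kb apart. The copies are similar in sequence and the handling of reads that match both is not stated, which makes the level of each uncertain. The number of Lefty2 reads per Lefty1 read was 2.41 and 2.21 in wild type, against 1.66 and 2.25 in the knockout. These ratios overlapped between the genotypes (exact permutation test on the log2 ratio, two-sided p = 0.667, where 0.333 is the smallest p that 2 against 2 libraries allow). This test could not have passed at any outcome, so the paralogs were not shown to differ or to act alike. Summed over both genes, the level was 49.8 and 43.4 CPM in wild type, against 38.7 and 39.6 CPM in the knockout, without overlap. Division of shared reads between the genes does not change this sum. Dropping such reads, or counting them for both genes, would.

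The receptor genes had nearly the same level in both genotypes. Acvr1b, the type I receptor, was at 46.9 and 41.4 CPM in wild-type cells and at 46.0 and 40.4 CPM in the knockout. In each genotype replicate 1 was the higher library, and the gap within each genotype was larger than that between the group means of 44.1 and 43.2 CPM (log2 fold change -0.031, adjusted p = 0.88). Acvr2a was at 17.8 and 16.1 CPM in wild-type cells and at 17.9 and 17.4 CPM in knockout cells (log2 fold change 0.055, adjusted p = 0.808). It overlaps the protein-coding gene Orc4 in the annotation, and the sources used here do not state the use of strand. Among the other members, Lefty1, Acvr1b and Smad3 overlap noncoding genes. Acvr2b was at 20.0 and 18.9 CPM in wild-type cells and at 19.2 and 17.5 CPM in knockout cells (log2 fold change -0.084, adjusted p = 0.681). The groups overlapped for all 3 receptor genes. Their 95% intervals spanned 0.824-fold (Acvr2b) to 1.19-fold (Acvr2a) of the wild-type level, so larger changes of these receptor transcripts lie outside them.

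Among the transducers, Smad2 showed the smallest difference of the 10 members. It was at 84.2 and 94.7 CPM in wild-type cells and at 86.1 and 93.3 CPM in the knockout, and both knockout values lay between the wild-type ones (log2 fold change 0.0044, SE 0.064, limma adjusted p = 0.982). Of all tested genes, 97.1% had a larger change. Smad3, the other receptor-activated SMAD of this branch, was at 36.4 and 37.1 CPM in wild-type cells and at 40.9 and 40.1 CPM in the knockout. The libraries of each genotype were close together and the groups did not overlap. The mean was 36.7 ± 0.50 CPM in wild type, against 40.5 ± 0.54 CPM in the knockout, a ratio of 1.10. This 0.14 (SE 0.067) on the log2 scale did not pass (adjusted p = 0.285); limma estimates the spread of a gene partly from genes of similar level, not from its own libraries alone. The interval ran from 0.995-fold to 1.22-fold.

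Smad4, the partner that the Nodal and BMP branches share, was at 101.4 and 99.6 CPM in wild-type cells and at 97.2 and 94.4 CPM in the knockout. The groups did not overlap, and the means differed by a ratio of 0.953 (log2 fold change -0.069, adjusted p = 0.513). Skil, the SnoN repressor gene, was at 71.1 and 63.8 CPM in wild-type cells and at 62.8 and 62.9 CPM in the knockout. Wild-type library 1 stood above the other 3, which were close together (log2 fold change -0.098, adjusted p = 0.438). For the SMAD genes and Skil the intervals spanned 0.851-fold (Skil) to 1.22-fold (Smad3).

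**Figure D3:**
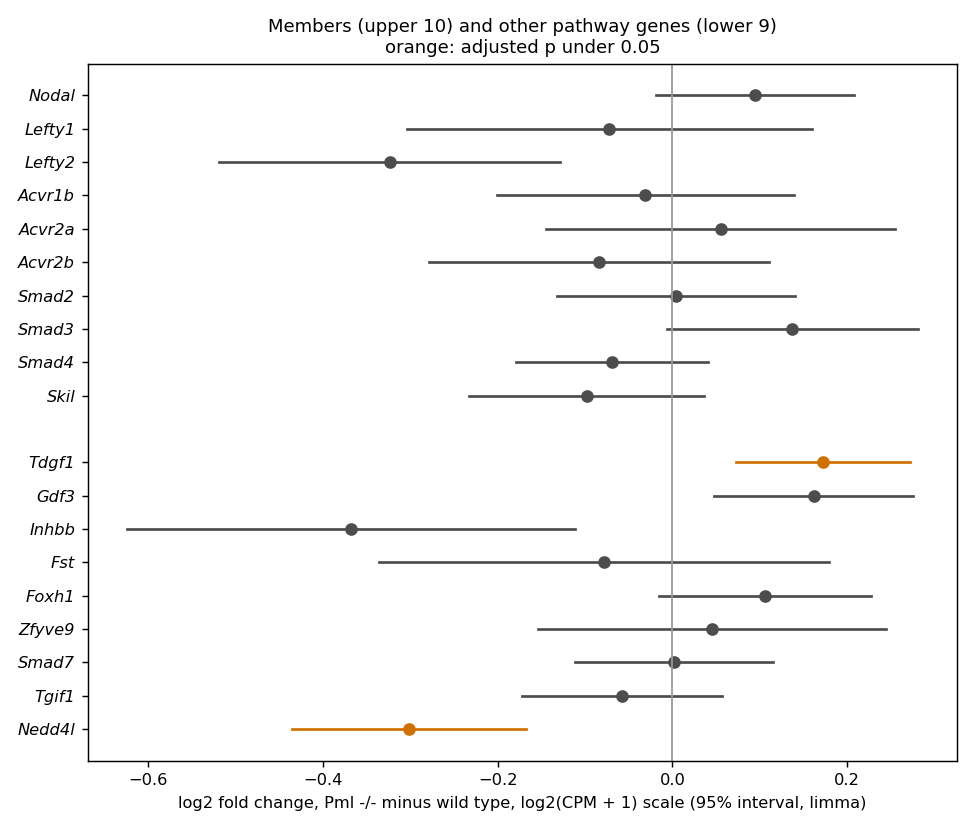
Log2 fold change (knockout minus wild type, log2(CPM + 1) scale) with its 95% limma interval for the 10 members, above, and 9 other genes of the pathway, below; orange marks an adjusted p under 0.05. Tdgf1 (0.17) and Nedd4l (-0.30) pass, and of the members the Lefty2 interval is the 1 that leaves out 0.

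Beyond these 10, 39 further genes of the pathway were listed by role, of which 27 passed the filter. Of the 27, 1 was called higher and 1 lower, beside 1.95% and 3.45% of all tested genes, and 7 had an unadjusted limma p under 0.05, beside 19.3%. Their median log2 fold change was -0.02, beside -0.0029 for all tested genes.

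Of 5 tested genes for ligands, the co-receptor and processing enzymes (9 listed), 4 had an unadjusted limma p under 0.05, beside 19.3% of all tested genes. The only one called was Tdgf1, which rose. This gene encodes Cripto, which lets Nodal engage its receptors, and it stood at 216.1 and 209.2 CPM in wild-type cells and at 233.4 and 246.3 CPM in the knockout. The groups did not overlap, and the gap between them was larger than the gap within either. The means were 213 ± 4.89 and 240 ± 9.13 CPM, a ratio of 1.13 (log2 fold change 0.17, SE 0.047, limma adjusted p = 0.0444). This call was narrow. It ended under TMM scaling (adjusted p = 0.0581), with edgeR on recovered reads (0.0603) and with no filter on low values (0.104). It also ended without wild-type library 1 (0.0811), wild-type library 2 (0.195) or knockout library 2 (0.176), and the authors' deposited table gives a false discovery rate of 0.0801. RefSeq lists pseudogene copies of Tdgf1, so reads may be shared with them.

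Gdf3, a ligand related to Nodal that also uses Cripto, was at 128.5 and 139.0 CPM in wild-type cells and at 145.4 and 154.0 CPM in the knockout. The groups did not overlap, but unlike for Tdgf1 the gap between them was smaller than the gap within either. The test was not passed (log2 fold change 0.16, limma adjusted p = 0.0986). Inhbb, which encodes the activin B subunit, had the opposite sign, at 15.1 and 12.1 CPM in wild-type cells and at 9.62 and 10.9 CPM in knockout cells (log2 fold change -0.37, SE 0.12, adjusted p = 0.0951). As for Lefty2, wild-type library 1 was the highest, and the difference was -0.60 between libraries numbered 1 and -0.13 between libraries numbered 2. The size of both changes depended on single libraries of either genotype. Without wild-type library 2 the log2 fold change was 0.22 for Gdf3 and -0.52 for Inhbb. Without wild-type library 1 it was 0.11 for Gdf3 and -0.22 for Inhbb. Without knockout library 1 it was 0.20 for Gdf3 and -0.28 for Inhbb, and without knockout library 2 it was 0.12 and -0.45.

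Of 3 tested extracellular antagonists (5 listed) none was called. Fst, which encodes the activin-binding protein follistatin, was at 13.1 and 11.1 CPM in wild-type cells and at 10.2 and 12.6 CPM in the knockout, with overlap (log2 fold change -0.078, adjusted p = 0.785). Of 6 tested receptor, adaptor and cofactor genes (7 listed) none was called either. Foxh1, the DNA-binding partner of SMAD2 and SMAD3, was at 63.6 and 64.8 CPM in wild-type cells and at 68.2 and 70.1 CPM in the knockout, without overlap (log2 fold change 0.11, adjusted p = 0.333). Zfyve9, the SARA adaptor gene, was at 18.9 and 18.3 CPM in wild-type cells and at 18.0 and 20.5 CPM in knockout cells (log2 fold change 0.045, adjusted p = 0.844). Its wild-type values lay between the knockout ones.

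All 10 intracellular negative regulators listed were tested, and Nedd4l fell. It encodes a ubiquitin ligase known to target activated SMAD2 and SMAD3, and it was at 55.1 and 56.4 CPM in wild-type cells and at 44.0 and 46.1 CPM in the knockout. The gap between the groups was several times the gap within each. The means were 55.8 ± 0.94 and 45.1 ± 1.49 CPM, a ratio of 0.808 (log2 fold change -0.30, SE 0.063, limma adjusted p = 0.0102). Nedd4l passed under all 12 alternatives (log2 fold changes -0.33 to -0.27, highest adjusted p = 0.0447), and the authors' deposited table gives a false discovery rate of 0.00159. Nedd4l overlaps noncoding genes in the annotation, and it has other known substrates, among them sodium channels.

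Smad7, the inhibitory SMAD that the pathway itself induces, was at 111.2 and 104.6 CPM in wild-type cells and at 105.9 and 110.1 CPM in the knockout. The knockout values lay between the wild-type ones (log2 fold change 0.0016, adjusted p = 0.993). Tgif1, a homeodomain corepressor of SMAD2, was at 200.6 and 191.3 CPM in wild-type cells and at 178.8 and 198.1 CPM in the knockout, with overlap (log2 fold change -0.058, adjusted p = 0.616).

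Genes that Nodal signalling turns on in mesendoderm had low levels. Of 8 listed, 3 had a mean of at least 1 CPM, and none of these was called. The summed level of all 8 was 11.6 to 12.7 CPM in wild type, against 10.3 to 10.7 CPM in the knockout. Most of this came from Eomes, a T-box factor gene named after its values were seen, at 6.85 and 6.57 CPM in wild type, against 5.74 and 5.97 CPM in knockout cells.

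**Figure D4:**
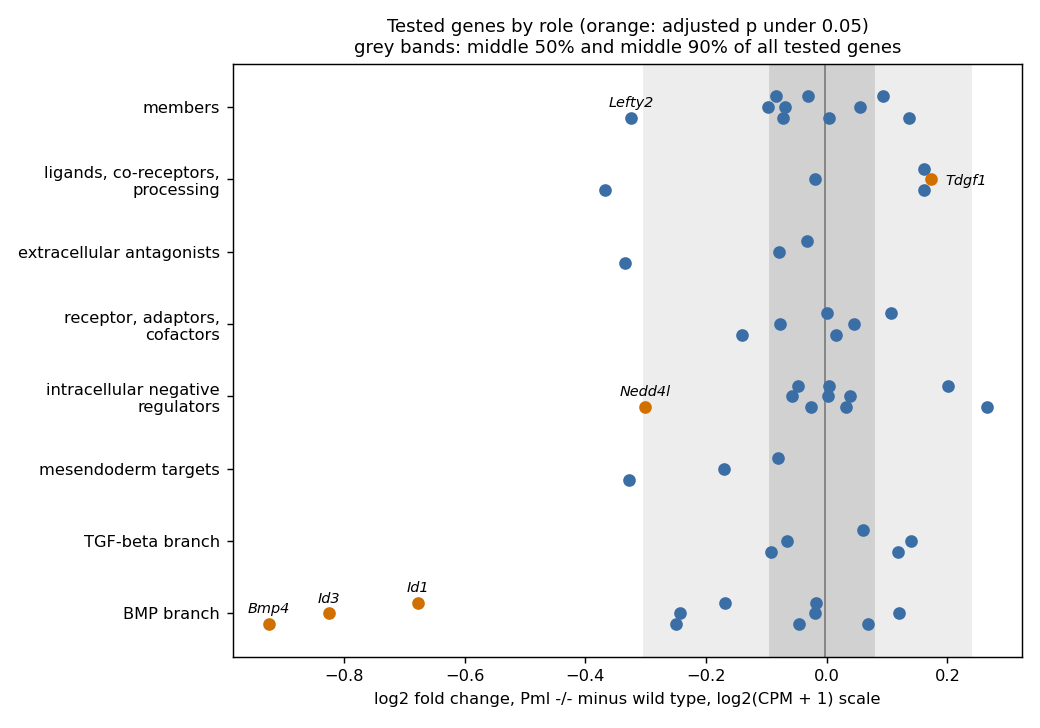
Log2 fold change (knockout minus wild type) of every tested gene of each role list, 1 point a gene; grey bands hold the middle 50% and 90% of all 12710 tested genes, the line is their median, and orange marks an adjusted p under 0.05. Lefty2 lies just beyond the lower edge of the 90% band (-0.30), and the other 9 members lie inside it.

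The related branches of the superfamily were described in the same way. Of 5 tested TGF-beta ligand and receptor genes (6 listed) none was called. Of 11 tested BMP branch genes (12 listed) 3 fell, beside 3.45% of all tested genes called lower, and none rose. The list was chosen with earlier results of these data known, so this contrast is not independent of its outcome. Bmp4, a ligand gene, stood at 15.07 and 11.99 CPM in wild-type cells and at 5.98 and 7.30 CPM in knockout cells (log2 fold change -0.93, SE 0.13, limma adjusted p = 0.000667). BMP target genes Id1 and Id3 fell by 0.68 and 0.83 on the log2 scale (adjusted p = 0.00387 and 0.00395). For Bmp4, Id1 and Id3, as for Lefty2 and Inhbb, wild-type library 1 had the highest level of the 4. For Nedd4l, also called lower, wild-type library 2 was the highest (55.1 CPM in library 1 and 56.4 CPM in library 2). When the groups do not overlap and the knockout is lower, a wild-type library must be the highest. A shared effect of wild-type library 1 was not tested. Without wild-type library 1 the log2 fold changes of Bmp4, Id1 and Id3 were -0.77, -0.59 and -0.59. The authors' own edgeR test gave Bmp4, Id1 and Id3 false discovery rates of 1.32e-08, 1.37e-06 and 1.54e-05. Whether the BMP branch differs from the Nodal and activin genes as a group was not tested.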

How the data were processed

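RNA-seq of 4 libraries was analysed (2 wild type, 2 Pml-/-). Cutadapt, TopHat and edgeR were used on mm10, per the submitters' processing notes; the sources used here state no versions, annotation, strand use or handling of reads matching several genes. Per the file headers, the deposited values are CPM per library, with the authors' log2 fold change and log2 CPM (wild type over knockout: the sign matched for 824 of 824 genes they called that averaged 1 CPM or more), p-value and false discovery rate. Dividing CPM by the value of 1 read gave whole reads for 100% of values (tolerance 0.001 reads).

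Log2(CPM + 1) was tested with limma-trend (limma 3.58.1, R 4.3.3) over the 12710 genes averaging 1 CPM or more, on genotype alone, with Benjamini-Hochberg adjustment over all of them at 0.05. Of these, 687 passed, 248 higher and 439 lower in the knockout. Alternatives were edgeR 4.0.16 (quasi-likelihood; 620 of 14782 genes called) and DESeq2 1.42.0 on recovered reads, other pseudocounts, filters and scaling, a replicate block, and leaving out each library. Depth was 31384794, 44130093, 38150397 and 43715807 reads. How far counting noise and the number of libraries each limit precision for the members was not tested. Replicates of a group differed by more than counting noise.

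The members and the gene lists were chosen with earlier results of these data known. Named were all 10 members, Pml, 8 pathway genes chosen by function (Tdgf1, Gdf3, Inhbb, Fst, Foxh1, Zfyve9, Smad7 and Tgif1) and every other listed pathway gene that passed; 1 further gene of the rule is not reported here. Promoter windows and coordinates are from RefSeq (GRCm38.p6).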

Additional observations from a re-analysis of the deposited data

How the results depend on the processing

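Of 276 recomputed fold changes of the named genes, 250 kept their direction and their side of the threshold. The 12 that changed sign came from leaving out a library, in genes with changes near 0 and no call: across the libraries left out, the log2 fold change ranged from -0.19 to 0.046 for Lefty1, -0.12 to 0.062 for Acvr1b, -0.014 to 0.12 for Acvr2a, -0.080 to 0.088 for Smad2, -0.22 to 0.060 for Fst, -0.042 to 0.13 for Zfyve9, -0.042 to 0.045 for Smad7 and -0.13 to 0.015 for Tgif1. The other members kept their sign, with -0.44 to -0.21 for Lefty2, 0.038 to 0.15 for Nodal, -0.15 to -0.021 for Acvr2b, 0.12 to 0.15 for Smad3, -0.090 to -0.048 for Smad4 and -0.17 to -0.021 for Skil. The number of members called, 0, was 0 to 1 when each library was left out, the 1 being Lefty2. Over all pathway lists, TGF-beta and BMP branches included but not the members, 5 of 43 tested genes were called, beside 5.41% of all tested genes, with 4 to 7 when a library was left out and 3 with no filter; those called higher numbered 1, with 0 to 2 when a library was left out and 0 with no filter, TMM scaling or edgeR. For all genes, 687 became 423 to 879 without 1 library (higher, 133 to 313; lower, 290 to 566) and 298 with no filter (79 higher, 219 lower). Without a filter more genes are tested. The other causes were not tested. Leaving out a library leaves 1 in a group, which is then assumed to vary like the other group. Id3 did not pass with no filter (-0.83, adjusted p = 0.0573). The labels do not say that equal replicate numbers mark a shared batch, and the deviations of same-numbered libraries from their group means correlated at 0.12. With the replicate number as a block, 1198 genes were called (478 higher, 720 lower), 8 pathway genes (3 higher) and 1 member, Lefty2 (adjusted p = 0.00999). Gdf3 and Inhbb also passed with the block (adjusted p = 0.0341 and 0.0312).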
